A study of Canis lupus familiaris with 30 samples.

Results

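Genes of blood platelets, GP1BA, ITGA2B, ITGB3, SELP and CLU, were followed in RNA of dog peripheral blood mononuclear cells, 5 of 36610 genes or accessions on the array. They were read by every non-control probe whose RefSeq transcript belongs to 1 of them. There were 10 such probes of 43603 on the array, 5 for CLU, 2 for SELP and 1 each for GP1BA, ITGA2B and ITGB3. All 10 passed the filter for probes near background, which asked for a signal well above background in at least 7 of 60 channels and kept 31691 probes. Where a single value per gene is given, it comes from the brightest probe.

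The study set adult dogs that ate only a raw red meat diet, high in protein and fat (7 dogs), against adult dogs that ate only a premium kibble with carbohydrate (8 dogs). Blood was taken at the start of the experiment (week 0) and at weeks 3, 6 and 9. The groups were meat at weeks 0 (7 channels), 3 (7), 6 (8) and 9 (8) and kibble at weeks 0 (7 channels), 3 (7), 6 (8) and 9 (8), on 30 arrays that each carry 1 group in Cy3 and another in Cy5. The labels name 6 biological replicates and do not say which dog is on which array, so some RNA may have been read more than once and p-values measure the spread between arrays.

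Platelets have no nucleus and carry RNA left from their parent cell, the megakaryocyte. They are small cells that sediment near mononuclear cells in density centrifugation and also stick to monocytes, so preparations of mononuclear cells usually hold some of them. Their first contact with a damaged vessel is made by glycoprotein Ib, whose ligand-binding chain GP1BA encodes and which holds on to von Willebrand factor. ITGA2B and ITGB3 encode the alpha and beta chains of the platelet fibrinogen receptor, the integrin that links platelets to each other. ITGB3 also pairs with another alpha chain on other cells. SELP encodes P-selectin, an adhesion receptor for leukocytes that lies in the wall of the alpha granules and reaches the surface when platelets are activated. CLU encodes clusterin, a secreted chaperone that platelets store in alpha granules and that many other cell types make as well.

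The signal of the 5 genes was measurable in every group. The probes of GP1BA, ITGA2B, ITGB3 and SELP and 3 of the 5 CLU probes stood well above background in 60 of 60 channels, the other 2 CLU probes in 52 and 49. The brightest probe of each gene had no missing array and a dye term of at most 0.146 log2. Genes of the labelled cells were present too, since the T cell gene CD28, the B cell gene MS4A1 and the monocyte gene CD163 were well above background in 60 of 60 channels. So was the neutrophil gene CAMP. Over the series, an array had 20182 to 42898 Cy3 spots and 19505 to 43610 Cy5 spots well above background. Precision is limited by how many arrays there are. The array labelled kibble 0/kibble 9 replicate 1 had the fewest such spots and the array meat 9/meat 0 replicate 1, next to it on the same slide, the most. Arrays are named here by the group in Cy3 and then the group in Cy5.

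The 5 genes varied far more between arrays than most probes did. After the group terms and the dye term were fitted, the residual SD on the log2 scale was 0.65 for GP1BA, 0.65 for ITGA2B, 0.51 for ITGB3, 0.59 for SELP and 0.36 for CLU. The median over all 31691 probes was 0.16, and the 5 genes lay between the 90.8th and the 98.7th percentile. The group terms took 77.6% of the spread of GP1BA, 76.4% of CLU, 72.6% of SELP, 64.8% of ITGA2B and 60.3% of ITGB3, where the median probe had 34.3%.

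All 5 genes were lower on meat than on kibble over the fed weeks. In the mean of weeks 3, 6 and 9, GP1BA was 2.47-fold lower on meat (log2 -1.31 ± 0.18, SE, 11 diet arrays, adjusted p = 3.54e-05, limma fit over 31691 probes with Benjamini-Hochberg adjustment). ITGA2B was 1.86-fold lower (log2 -0.90 ± 0.18, adjusted p = 0.00131) and its partner ITGB3 1.67-fold lower (log2 -0.74 ± 0.14, adjusted p = 0.000984). SELP was 1.69-fold lower (log2 -0.76 ± 0.17, adjusted p = 0.0025) and CLU 1.73-fold lower (log2 -0.79 ± 0.10, adjusted p = 1.46e-05). All 10 probes were called lower on meat by this test. In this comparison 8.38% of all probes were called lower and 15.8% were called in either direction. The 5 genes were chosen with earlier results of these data known, so these shares are a background and not a test of the genes as a set. Probes of 1 gene are repeat readings. The median over the 5 genes was log2 -0.79, beside 0.00098 over all probes. With the dye term removed, GP1BA and CLU were lower on meat on 11 of 11 arrays, ITGB3 and SELP on 10 and ITGA2B on 9. In bulk RNA, fewer platelets among the cells and less of these RNAs per platelet cannot be told apart.

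The fitted size of the difference varied between the weeks, and the arrays of each week are best read one by one. The tests of change in this difference between diets, week 9 less week 0 and week 6 less week 3, called no member. Array values in the text are log2 ratios with the fitted dye term removed. The diet arrays of each week shared 1 slide that held no other week, so week and slide cannot be told apart among them, and the value of a week is also the value within a slide.

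At week 0 no member was called. GP1BA read -1.05, -0.52 and -0.44 on the 3 arrays that set meat against kibble. ITGA2B read -1.25, -0.55 and -0.099. ITGB3 read -0.88, -0.42 and -0.39. Every value was below 0, as it was for SELP, at -0.67, -0.47 and -0.42, and for CLU, at -0.58, -0.47 and -0.15. The fitted differences were log2 -0.72 ± 0.30 for GP1BA (SE, adjusted p = 0.425), -0.61 ± 0.30 for ITGA2B (adjusted p = 0.549), -0.61 ± 0.24 for ITGB3 (adjusted p = 0.376), -0.48 ± 0.27 for SELP (adjusted p = 0.658) and -0.46 ± 0.17 for CLU (adjusted p = 0.317). The limma fit called 0 of 10 probes here and 0.312% of all probes. The 95% interval of GP1BA ran from -1.33 to -0.11, that of CLU from -0.80 to -0.12 and that of SELP from -1.04 to 0.081.

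At week 3 GP1BA and CLU were lower on meat. GP1BA read -2.11, -1.20 and -0.85 on the 3 arrays (log2 -1.23 ± 0.30, SE, adjusted p = 0.0163 by limma). CLU read -1.17, -1.06 and -0.95 (log2 -0.87 ± 0.17, adjusted p = 0.00381), the tightest set of diet arrays of any gene and week. The fitted CLU value lies nearer 0 than all 3 readings, because the fit also draws on arrays of other groups. The other genes were below 0 on all 3 arrays too but did not pass, with log2 -0.78 ± 0.30 for ITGA2B (adjusted p = 0.11), -0.66 ± 0.24 for ITGB3 (adjusted p = 0.0915) and -0.49 ± 0.27 for SELP (adjusted p = 0.292). Of the 10 probes 4 were called lower, beside 3.82% of all probes. The array meat 3/kibble 3 replicate 1 held the lowest value of all 5 genes, and without it 1 of the 5 genes was called. Without meat 3/kibble 3 replicate 2 none was, and without kibble 9/meat 9 replicate 2, an array of another week that enters the shared spread, 4 were.

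Week 6 had the largest fitted difference of GP1BA, ITGA2B, ITGB3 and SELP among the 4 weeks. GP1BA read -2.56, -1.76, -1.56 and -0.97 on the 4 arrays, a 3.56-fold lower level on meat (log2 -1.83 ± 0.28, SE, adjusted p = 0.000944 by limma). ITGA2B read -2.04, -1.33, -0.998 and -0.80 (log2 -1.38 ± 0.28, adjusted p = 0.00461). ITGB3 read -1.61, -0.78, -0.73 and -0.60 (log2 -1.02 ± 0.22, adjusted p = 0.00705). The 2 chains of the fibrinogen receptor were thus lower on meat on the same arrays, with the array kibble 6/meat 6 replicate 1 lowest for both. SELP read -2.06, -1.13, -0.83 and -0.46 (log2 -1.26 ± 0.25, adjusted p = 0.00486). CLU read -1.40, -0.55, -0.52 and -0.36 (log2 -0.85 ± 0.15, adjusted p = 0.00285). Meat was lower on 4 of 4 arrays for each gene, and 9 of 10 probes were called lower beside 3.72% of all probes. Without kibble 6/meat 6 replicate 1, which was the lowest array of all 5 genes, 1 of the 5 stayed under the threshold (GP1BA).

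At week 9 the arrays disagreed. GP1BA read -2.55 on kibble 9/meat 9 replicate 2 and -0.53, -0.31 and -0.20 on the others (log2 -0.86 ± 0.28, SE, adjusted p = 0.182 by limma). ITGA2B read -2.14, -0.37, 0.045 and 0.45 (log2 -0.52 ± 0.28, adjusted p = 0.513). ITGB3 read -1.66, -0.70, -0.11 and 0.20 (log2 -0.54 ± 0.22, adjusted p = 0.337). SELP read -1.63, -0.41, -0.20 and 0.25 (log2 -0.53 ± 0.25, adjusted p = 0.446). In each gene the same array was lowest, and kibble 9/meat 9 replicate 1 was the highest for all but GP1BA. CLU read -1.42, -0.83, -0.53 and -0.025, and its fitted value of log2 -0.66 ± 0.15 was just under the threshold (adjusted p = 0.0464). It was the 1 of 10 probes called lower, beside 0.3% of all probes, and it lost the call in 21 of 30 fits that left out 1 array.

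**Figure D1:**
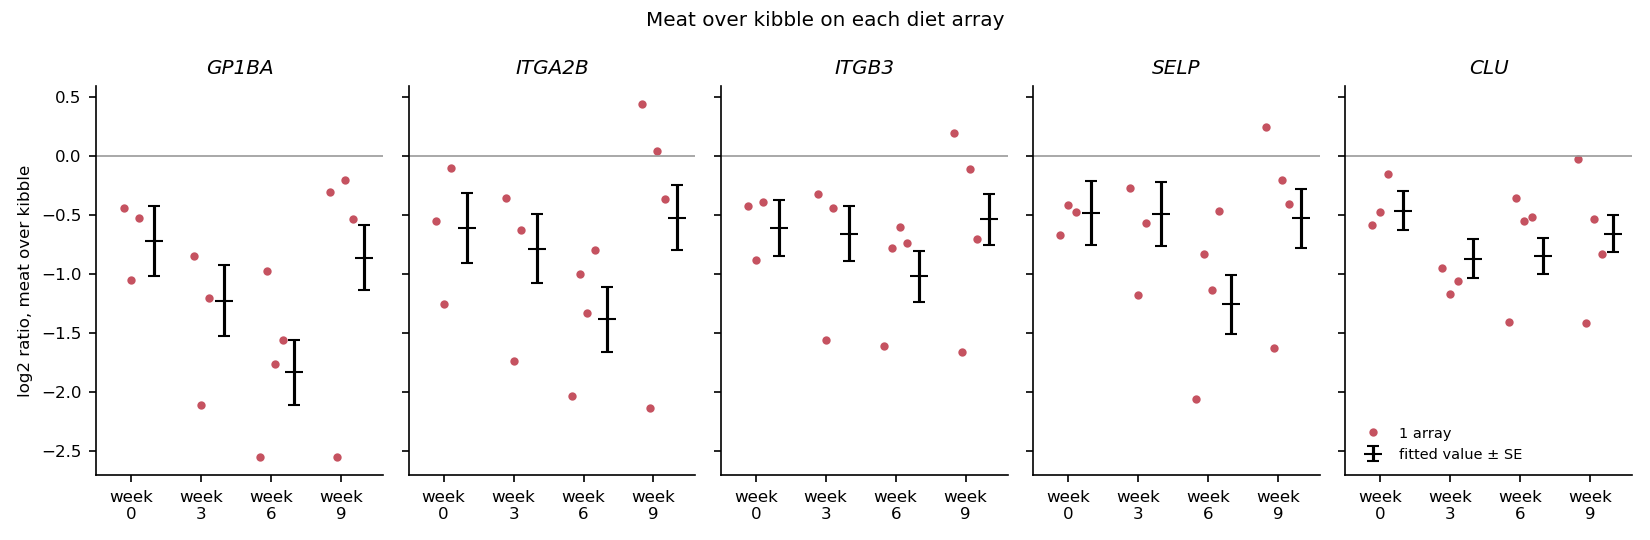
Log2 ratio of meat over kibble for the brightest probe of each gene on the 3 or 4 arrays of weeks 0, 3, 6 and 9 (red points, dye term removed), with the fitted value and its SE in black. All points of weeks 0, 3 and 6 lie below 0, and week 9 has 1 array near or below -1.4 in every gene.

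The difference between meat and kibble in the fed weeks was not shown to exceed that at week 0. The mean of weeks 3, 6 and 9 less week 0 was log2 -0.59 ± 0.32 for GP1BA (SE, 95% interval -1.25 to 0.080, adjusted p = 0.587), -0.29 ± 0.32 for ITGA2B (-0.95 to 0.38, adjusted p = 0.852) and -0.13 ± 0.26 for ITGB3 (-0.66 to 0.40, adjusted p = 0.925). It was -0.28 ± 0.30 for SELP (-0.89 to 0.33, adjusted p = 0.838) and -0.33 ± 0.18 for CLU (-0.70 to 0.039, adjusted p = 0.58). No member was called, and limma called 0% of all probes in this comparison, with 3077 of 31691 at an unadjusted p under 0.05. All 5 values were negative, and all 5 intervals include 0.

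GP1BA and SELP were higher at week 9 than at week 0 in both diet groups, and CLU on kibble. The time arrays read later over earlier week within a diet, and each of their slides held both diets. In both pairs of weeks the later week was in Cy5 on 4 of 4 arrays on kibble and on 0 of 4 on meat. Dye order thus went with diet on the time arrays, so their values and the difference between diets in the change rest on the fitted dye term. On meat, SELP read 1.36, 1.27, 1.13 and 0.29 on the 4 arrays, a 2.06-fold higher fitted level at week 9 (log2 1.05 ± 0.25, SE, adjusted p = 0.0115 by limma). GP1BA read 1.54, 1.11, 0.98 and 0.24 (log2 0.93 ± 0.27, adjusted p = 0.0337). These 2 genes and 3 of 10 probes were called higher, beside 4.07% of all probes. ITGA2B was above 0 on 4 of 4 arrays without passing (log2 0.78 ± 0.27, adjusted p = 0.0769), as was CLU (log2 0.36 ± 0.15, adjusted p = 0.148). ITGB3 was above 0 on 3 of 4 (log2 0.36 ± 0.22, adjusted p = 0.359). The array meat 9/meat 0 replicate 1 was the lowest for all of them but CLU. The 2 calls were lost without meat 9/meat 0 replicate 2 or replicate 3, 1 was lost without meat 9/meat 0 replicate 4, meat 0/kibble 0 replicate 1 or kibble 9/meat 9 replicate 1, and 4 genes were called without kibble 9/meat 9 replicate 2.

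On kibble, GP1BA read 1.56, 1.15, 0.76 and 0.68 on the 4 arrays (log2 1.07 ± 0.27, SE, adjusted p = 0.00841 by limma). SELP read 2.18, 0.86, 0.77 and 0.70, a 2.14-fold higher fitted level at week 9 (log2 1.096 ± 0.25, adjusted p = 0.00368). CLU read 0.74, 0.58, 0.52 and 0.22 (log2 0.56 ± 0.15, adjusted p = 0.013). ITGA2B did not pass (log2 0.69 ± 0.27, adjusted p = 0.0892) and neither did ITGB3 (log2 0.28 ± 0.22, adjusted p = 0.432), which was below 0 on 1 array. Of the 10 probes 6 were called higher, beside 5.76% of all probes. The 3 gene calls on kibble ranged from 2 to 4 when 1 array was left out, and the CLU call was lost without kibble 0/kibble 9 replicate 4.

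Markers of other blood cells moved over the same weeks. Red cell markers were lower at week 9 in 2 of 7 on meat (list median log2 -0.246) and in 4 of 7 on kibble (-0.329), with 0 higher in either diet. The share of all probes called lower in these 2 comparisons is not given here. By limma, 7011 of 31691 probes on meat and 9048 on kibble had an unadjusted p under 0.05 in either direction. Of 7 monocyte markers 1, CTSS, was higher, by log2 0.53 ± 0.14 on meat (SE, adjusted p = 0.022 by limma) and 0.44 ± 0.14 on kibble (adjusted p = 0.0356). On meat 1 of the 5 genes listed for T cells, CD4, was lower (-0.90 ± 0.27, adjusted p = 0.0411), and on kibble it read -0.78 ± 0.27 (adjusted p = 0.0527). On kibble 1 of 3 basophil and eosinophil markers, CCR3 (-0.66 ± 0.22, adjusted p = 0.0425), and 1 of 7 neutrophil markers, ELANE (-0.23 ± 0.064, adjusted p = 0.0164), were lower. No B cell, cytotoxic cell or ribosomal protein gene of the lists was called in these 2 comparisons. The part of these cells in the rise of GP1BA, SELP and CLU was not tested.

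The change over these weeks was not shown to differ between the diets. Meat minus kibble for week 9 minus week 0 ranged from log2 -0.20 (CLU) to 0.09 (ITGA2B) with adjusted p-values of at least 0.812, and limma called 0% of all probes (2723 at an unadjusted p under 0.05). The 95% interval of that difference ran from -0.84 to 0.55 for GP1BA and from -0.68 to 0.58 for SELP.

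From week 3 to week 6 the meat group fell in SELP. It read -2.22, -0.92, -0.68 and -0.62 on 4 arrays (log2 -0.97 ± 0.25, SE, adjusted p = 0.0381 by limma), and both SELP probes, 2 of 10, were called lower beside 0.42% of all probes. GP1BA read -2.15, -1.19, -0.46 and -0.44 and missed the threshold (log2 -0.94 ± 0.27, adjusted p = 0.0666). ITGA2B was log2 -0.71 ± 0.27 (adjusted p = 0.155), ITGB3 -0.45 ± 0.22 (adjusted p = 0.264) and CLU -0.22 ± 0.15 (adjusted p = 0.475). One array, meat 6/meat 3 replicate 3, was lowest in each gene, and without it the SELP value was log2 -0.69 (adjusted p = 0.148). The SELP call was also lost without meat 6/meat 3 replicates 1, 2 or 4, kibble 3/kibble 6 replicates 2 or 4, kibble 3/meat 3 replicate 1, meat 3/kibble 3 replicate 2 or kibble 6/meat 6 replicate 1, with adjusted p-values of 0.0509 to 0.10, and it was kept in the other 21 of 30 such fits. It was lost under several other processing settings as well. On kibble the same weeks gave values near 0, from log2 -0.33 (GP1BA) to -0.09 (ITGB3), with none of 10 probes called beside 0.104% of all probes in either direction. The difference between the diets in this change was log2 -0.77 ± 0.31 for SELP (95% interval -1.40 to -0.13, adjusted p = 0.521) and -0.61 ± 0.34 for GP1BA (-1.30 to 0.086, adjusted p = 0.615). Here too limma called 0% of all probes, with 2873 at an unadjusted p under 0.05.

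**Figure D2:**
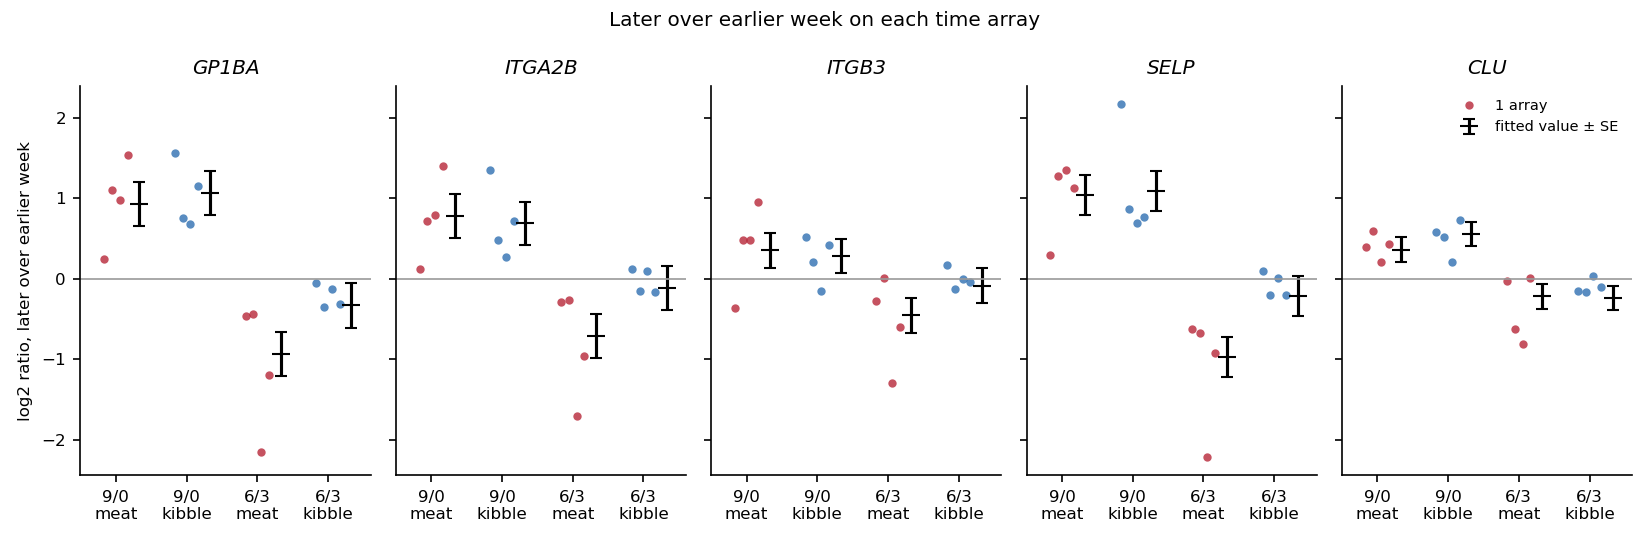
Log2 ratio of the later over the earlier week for each gene on the 4 time arrays of meat (red) and kibble (blue), dye term removed, with the fitted value and its SE in black. Week 9 over week 0 lies mostly above 0 in both diets. Week 6 over week 3 reaches below -1 on meat in every gene but CLU and stays near 0 on kibble.

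Single-channel levels put the 8 groups on 1 scale per gene, as log2 normalised intensities that are a description with no test. For GP1BA the lowest, median and highest channel at week 6 were 11.17, 11.75 and 12.98 on meat, against 13.16, 13.80 and 14.52 on kibble. At week 3 they were 11.97, 12.70 and 13.52 on meat, against 13.32, 13.50 and 14.23 on kibble. The 2 diets did not overlap at week 6 and overlapped at week 3. At week 9 the GP1BA channels on meat ran from 12.43 over a median of 13.11 to 13.32, against 13.40, 13.65 and 14.84 on kibble. At week 0 they ran from 11.54 over 12.13 to 12.45 on meat, against 12.35, 12.73 and 13.06 on kibble.

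Ordered by their medians, the GP1BA groups were meat at weeks 6, 0 and 3, kibble at week 0, meat at week 9, and kibble at weeks 3, 9 and 6. Neighbours in that order differed by more than the larger of their SDs only between kibble at week 0 and meat at week 9 and between meat at week 9 and kibble at week 3. ITGA2B had the same group at each end, from a median of 11.73 on meat at week 6 to 13.22 on kibble at week 6, and no neighbours differed beyond their spread. ITGB3 ran from 7.43 (meat, week 0) to 8.62 (kibble, week 6) and SELP from 11.77 (meat, week 0) to 13.21 (kibble, week 6), and in both genes the 1 pair of neighbours apart beyond their spread was meat at week 3 and kibble at week 0. In CLU the 4 meat groups, with medians of 7.76 to 8.40, were the lowest 4, and the 4 kibble groups, with medians of 8.58 to 9.10, the highest. The neighbours on either side of that divide, meat at week 9 and kibble at week 0, did not differ beyond their spread, and the 1 pair that did was kibble at weeks 0 and 6. At week 6 the channels of the diets did not overlap in 2 of the 5 genes (GP1BA and ITGA2B). At week 9 they did not overlap in 1 (GP1BA), and at weeks 0 and 3 in 0. The share of all probes without overlap is not given here, so these counts have no background to be set against. The limma test, a different measure, called 6.59% of all probes in either direction at week 6 and 0.524% at week 9. Weeks 0 and 9 never shared an array with weeks 3 and 6, so a level set across these pairs also carries the difference between their slides. Some ranges rest on the array meat 9/meat 0 replicate 1, which had the most spots well above background. It held the highest ITGB3 channel on meat at week 0 (9.777) and at week 9 (9.501). The lowest CLU channel on meat at these weeks (6.571 and 6.947) came from it too.

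**Figure D3:**
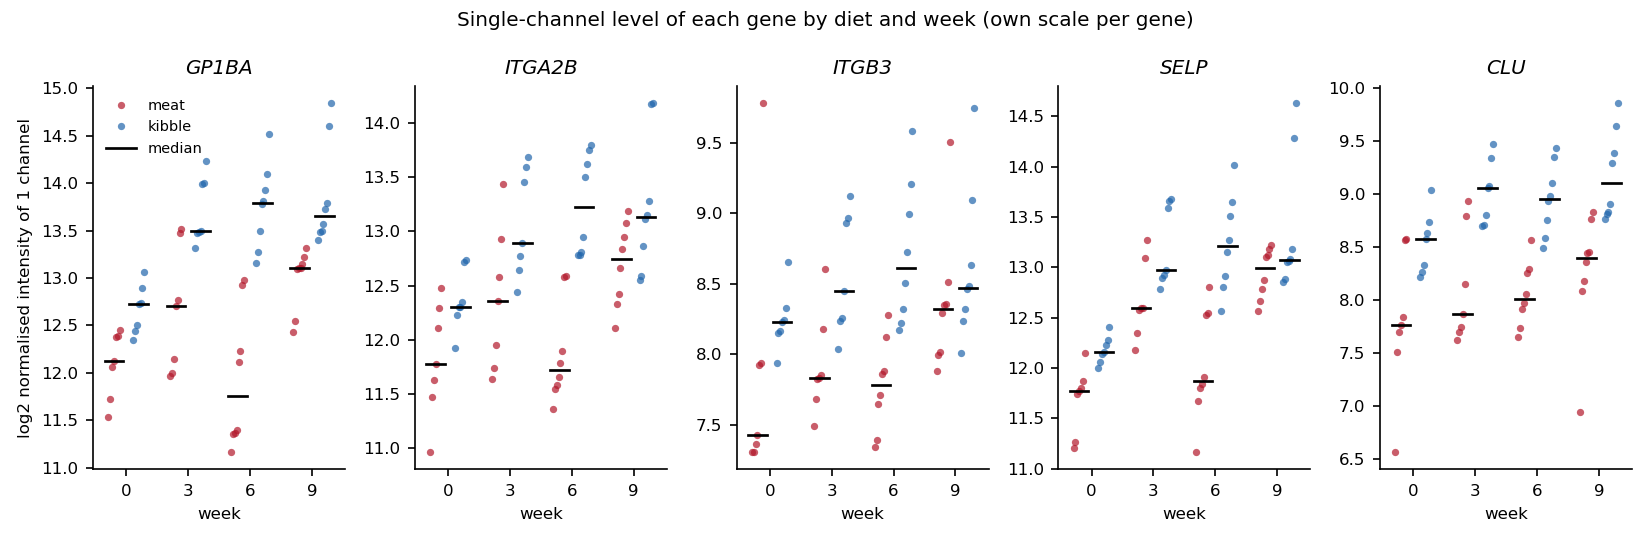
Log2 normalised intensity of each gene in every channel (points), meat in red left of kibble in blue at each week, with the group median as a black line. Each panel has its own scale, and meat medians lie below kibble medians at all 4 weeks in every gene.

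In the mean of the fed weeks the probes of 1 gene had the same sign and differed in size. The second SELP probe followed the brightest with r = 0.998 over 30 arrays and gave log2 -0.73 ± 0.17 (SE, adjusted p = 0.00409 by limma) in the mean of the fed weeks. Of the CLU probes, 2 followed the brightest with r = 0.99 and 0.969 and gave log2 -0.79 and -0.63. The 2 dim CLU probes, those below the background criterion in some channels, followed it with r = 0.857 and 0.847 and gave smaller values, -0.39 ± 0.078 (adjusted p = 0.00133) and -0.24 ± 0.056 (adjusted p = 0.00467). In the uncalled change from week 3 to week 6 the CLU probes differed in sign. All 5 CLU probes map to 1 RefSeq transcript, so they are readings of 1 RNA and not separate evidence.

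Array by array, the 5 genes moved together. All 5 were lower on meat on 3 of 3 arrays at week 0, 3 of 3 at week 3, 4 of 4 at week 6 and 2 of 4 at week 9. All 5 were higher at week 9 than at week 0 on 3 of 4 meat arrays and 3 of 4 kibble arrays. Over all 30 arrays, at least 4 of the 5 were on the same side of 0 on 28.

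They also moved together once the group values were taken away. The residual of an array is its ratio less the value fitted for its groups, so it holds what the array did beyond its diet and week. On kibble 9/meat 9 replicate 2 the residuals were -1.69 for GP1BA, -1.62 for ITGA2B, -1.13 for ITGB3, -1.099 for SELP and -0.76 for CLU, the lowest mean of the 5 on any array. Meat 6/meat 3 replicate 3 was next, with -1.21, -0.99, -0.85, -1.24 and -0.59 in the same order of genes. At the other end, kibble 9/meat 9 replicate 1 had 0.56, 0.97, 0.73, 0.78 and 0.63. These 3 arrays therefore stood off their groups in all 5 genes. All 5 residuals had 1 sign on 17 of 30 arrays, 6 low and 11 high, and at least 4 did on 25. One component, a common rise and fall of the 5, held 85.5% of the variance of the scaled residuals, and the second held 8.42%.

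**Figure D4:**
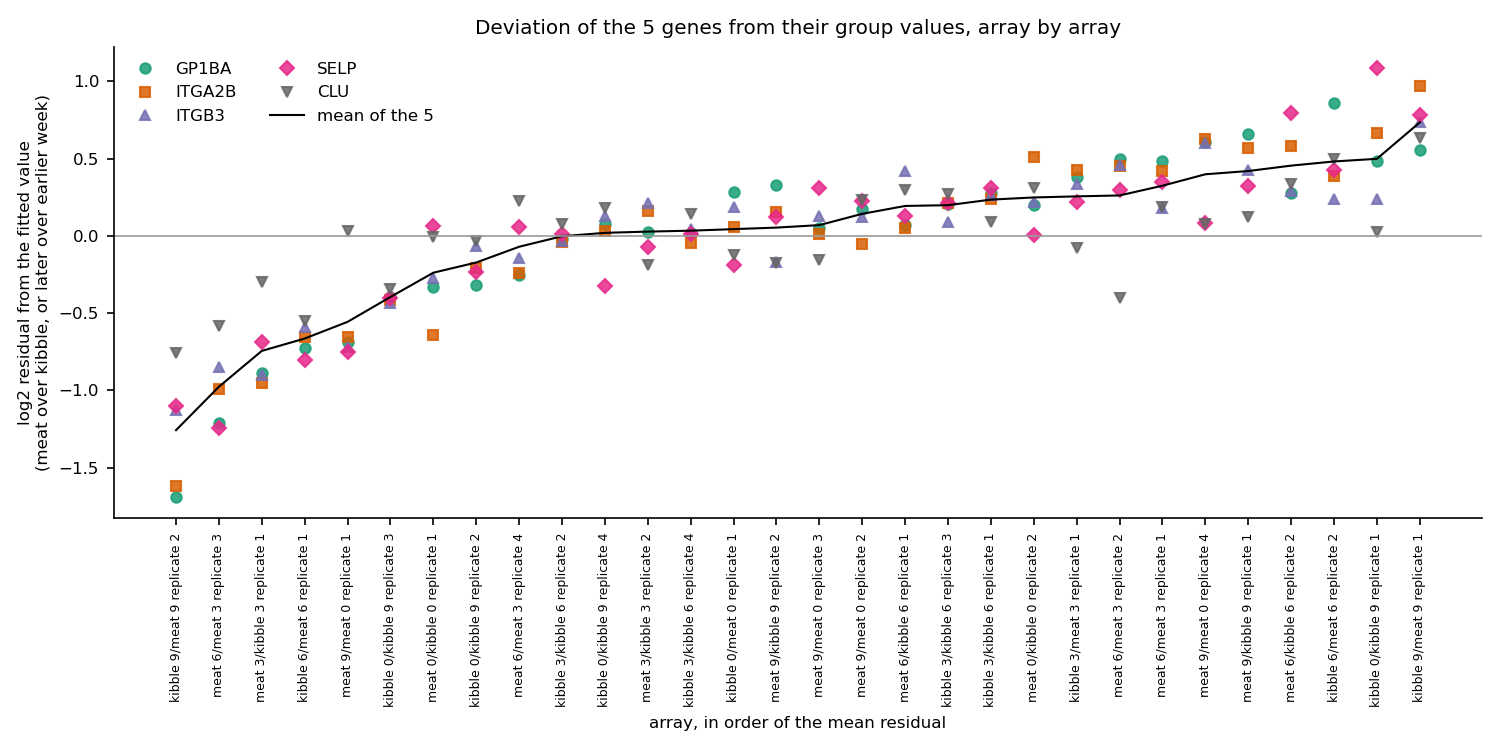
Residual log2 ratio of the 5 genes on each of 30 arrays, turned to meat over kibble or later over earlier week and ordered by the mean of the 5 (black line). Arrays are named by the group in Cy3 and then the group in Cy5. The 5 symbols rise together from -1.26 to 0.73 in their mean, with CLU closest to 0 at the low end.

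Across arrays the receptor genes were tied most closely. The residuals of GP1BA and ITGA2B correlated over 30 arrays with Pearson r = 0.949 and Spearman rho = 0.951 (permutation test, p = 1e-05 for both, the smallest that 100000 permutations give, adjusted p = 4.55e-05 over 100 tests). ITGA2B and ITGB3, the chains of 1 receptor, had r = 0.942 and rho = 0.935 with the same permutation p-values. GP1BA and ITGB3 had r = 0.923, and the pairs of SELP with the 3 receptor genes had r = 0.832 to 0.869. CLU was the loosest, with r = 0.683 to 0.696 and rho = 0.576 to 0.632 against the other 4. All 10 pairs passed, and without the 2 arrays farthest from the median of the first gene r was 0.517 to 0.92. Arrays with a shared slide, dye order or dog are not independent, so these p-values may be too small.

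The kinds of array were also taken apart, since the diet arrays were scanned in 1 session and the time arrays in another. The ratios of the 14 diet arrays gave r = 0.717 to 0.944 and passed in 10 of 10 pairs by Pearson and 9 by Spearman (permutation tests). The 16 time arrays gave r = 0.682 to 0.985 and passed in 10 of 10 by both. The ratios of the 16 time arrays also hold the difference between their pairs of weeks. Within the time arrays the 8 that compare week 9 with week 0 passed in 5 of 10 pairs, with r from 0.183 to 0.964, and the 8 that compare week 6 with week 3 in 6 of 10, with r from 0.532 to 0.998 (exact permutation tests). No pair with CLU passed in either set of 8, by Pearson or Spearman. Its r was 0.183 to 0.392 over weeks 9 and 0 and 0.532 to 0.721 over weeks 6 and 3. Without the 2 farthest arrays r for ITGB3 and CLU was -0.234 over weeks 9 and 0, where it had been 0.309, and -0.247 over weeks 6 and 3, where it had been 0.532. Over weeks 9 and 0, r for GP1BA and SELP was 0.441 in place of 0.791, while ITGA2B and CLU had 0.331 in place of 0.293.

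**Figure D5:**
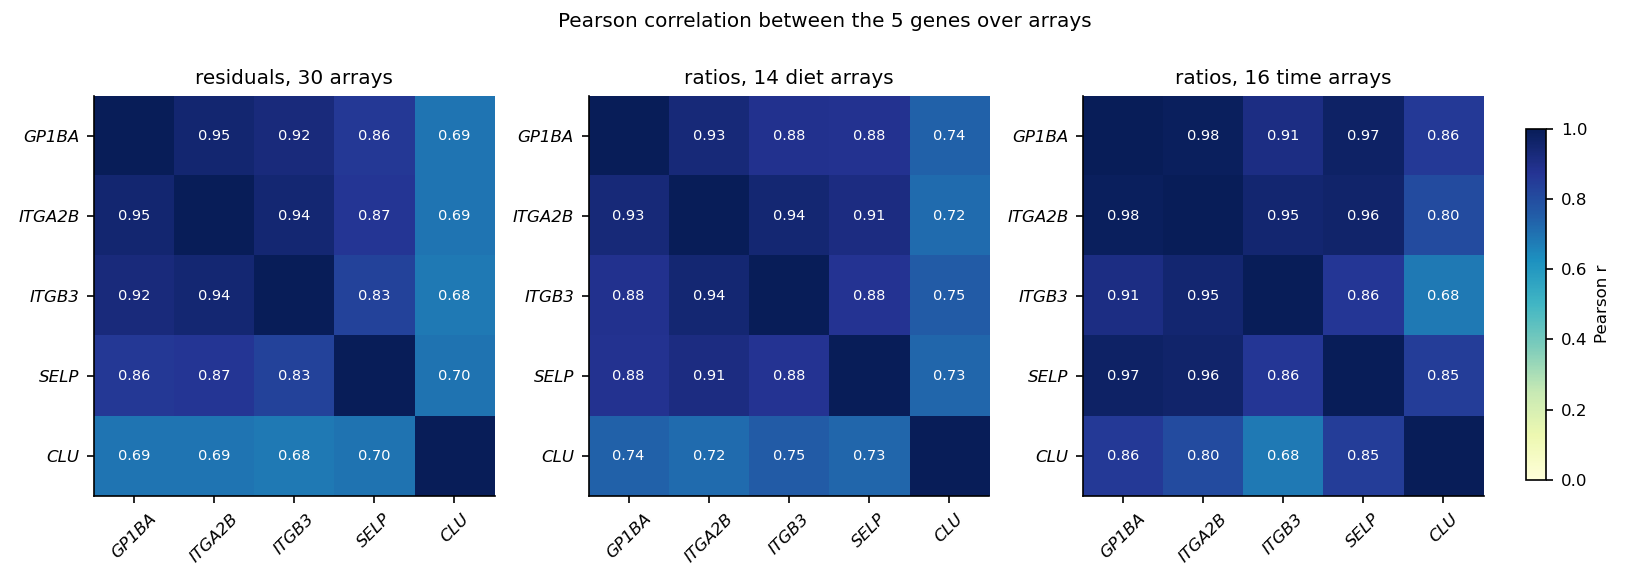
Pearson correlation between the 5 genes over the residuals of 30 arrays, the ratios of 14 diet arrays (meat over kibble) and the ratios of 16 time arrays (later over earlier week). Darker blue is a higher r. Each panel has its lowest value, 0.68 to 0.72, in a pair with CLU.

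Other genes followed the same pattern over the 30 arrays, measured as the Pearson correlation of the Cy5 over Cy3 log2 ratio with each of the 5. This likeness includes the differences between groups. The named gene closest to GP1BA outside the 5 was HSD17B14 (r = 0.976), then AK1 (0.961), TFPI (0.959), RLN2 (0.939) and TSHB (0.934). ITGA2B was closest to STOM (0.966), then HSD17B14 (0.962), RLN2 (0.947), SVIP (0.939) and TFPI (0.936). ITGB3 was followed by HSD17B14 (0.944), STOM (0.932), MYL2 (0.928), EPOR (0.925) and EGF (0.925). TFPI encodes an inhibitor of the tissue factor pathway of clotting, and STOM encodes stomatin, a membrane protein.

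SELP was closest to RLN2 (0.955), then TFPI (0.948), SVIP (0.947), SEC11C (0.937) and PTGS1 (0.935). CLU was closest to AK1 (0.926), then RIIAD1 (0.921), TIMP1 (0.906), LGALS4 (0.904) and DYNLT3 (0.902). PTGS1 encodes cyclooxygenase, which makes the precursor of thromboxane in platelets, and TIMP1 an inhibitor of metalloproteinases that alpha granules hold. Among 25949 genes or accessions, the other 4 platelet genes ranked between 12 and 228 by likeness to GP1BA, 17 and 379 to ITGA2B, 4 and 309 to ITGB3, 105 and 421 to SELP and 29 and 304 to CLU. The closest were ITGA2B and GP1BA (r = 0.971) and the farthest SELP and CLU (r = 0.818). The median r over all units was between -0.042 and -0.030 for the 5 genes, and the 99th percentile between 0.829 and 0.891. All 16 of these neighbours were lower on meat in the mean of the fed weeks, from log2 -0.34 ± 0.068 for DYNLT3 (SE, adjusted p = 0.00127 by limma) to -1.19 ± 0.19 for PTGS1 (adjusted p = 0.000134). They were chosen for likeness over the same arrays, which include that contrast.

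Of 32 other platelet markers listed, 2 had a named probe, PTGS1 and P2RY12. Both were lower on meat than on kibble in the mean of the fed weeks. For P2RY12, the platelet receptor for ADP that clopidogrel blocks, the difference was log2 -0.57 ± 0.11 (SE, adjusted p = 0.00085 by limma). Both went up from week 0 to week 9. On meat PTGS1 was log2 1.09 ± 0.28 higher (adjusted p = 0.017) and P2RY12 0.57 ± 0.17 (adjusted p = 0.0324), and on kibble 1.07 ± 0.28 (adjusted p = 0.0102) and 0.54 ± 0.17 (adjusted p = 0.0277). PTGS1 was log2 -1.04 ± 0.31 on meat against kibble at week 0 without passing (adjusted p = 0.172). Their ratios followed the 5 genes with r = 0.877 to 0.935 over 30 arrays.

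Of 9 measured genes for granule contents, 5 were lower on meat in the mean of the fed weeks and 0 higher, with a list median of log2 -0.37. They included TIMP1 (-0.81 ± 0.11, SE, adjusted p = 3.96e-05 by limma), the chemokine gene CCL5 (-0.92 ± 0.15, adjusted p = 0.000255), the amyloid precursor gene APP (-0.37 ± 0.092, adjusted p = 0.00672) and ANGPT1. CCL5 is also on the list of cytotoxic cells. TIMP1 followed the 5 genes with r up to 0.93, but the median r of the list with each of them was 0.195 to 0.487, so the granule list did not move as 1 block.

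Of 5 measured genes of platelet activation signalling, 4 were lower in that mean. Beside PTGS1 and P2RY12 these were P2RY1, the second ADP receptor of platelets (log2 -0.29 ± 0.048, SE, adjusted p = 0.000274 by limma), and FCER1G, the signalling chain of the collagen receptor and of Fc receptors in other cells (-0.26 ± 0.091, adjusted p = 0.048). P2RY1 was the 1 listed gene of these that was already called lower at week 0 (-0.37 ± 0.079, adjusted p = 0.0339). Of 3 measured partners and ligands of the receptors, CD44, a ligand of selectins made by most leukocytes, was lower (-0.51 ± 0.086, adjusted p = 0.00029). VWF, the ligand of glycoprotein Ib, was not called (-0.10 ± 0.087, adjusted p = 0.498), nor was PODXL (-0.056 ± 0.074, adjusted p = 0.712). Neither ICAM1 nor SELE, the measured genes of other adhesion molecules, was called.

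Markers of other blood cells also differed between the diets in the mean of the fed weeks. Of 7 measured monocyte markers 4 were lower and 0 higher on meat, with a list median of log2 -0.46, led by CYBB (-0.69 ± 0.099, SE, adjusted p = 5.45e-05 by limma) and CD163 (-0.60 ± 0.14, adjusted p = 0.00495). At week 3 the list's median was log2 -0.814 with 4 of 7 called lower, beside -0.784 with 2 of 5 for the platelet genes. At week 6 it was -0.296 with 1 of 7, beside -1.26 with 5 of 5. The mean level of the monocyte markers per channel at week 3 ran from 10.94 to 12.13 on meat, against 11.75 to 12.80 on kibble. At week 6 it ran from 11.76 to 12.79 on meat, against 11.91 to 12.94 on kibble, where that of the 5 platelet genes ran from 9.87 to 10.92 on meat, against 11.14 to 12.26 on kibble. Over the 30 arrays the monocyte markers followed GP1BA with r from -0.126 to 0.635 and CLU with r from 0.0087 to 0.716, below the pair of platelet markers. Of 7 neutrophil markers 3 were lower, led by CAMP (-2.54 ± 0.29, adjusted p = 3.54e-06), with r of -0.265 to 0.606 against GP1BA and -0.192 to 0.735 against CLU, highest for CAMP. For cytotoxic T and NK cells 5 of 7 markers were lower and 0 higher, with r of 0.089 to 0.64 against GP1BA and 0.094 to 0.61 against CLU.

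Red cell markers had 1 of 7 lower and 1 higher and followed GP1BA with r of -0.462 to 0.105 and CLU with r of -0.475 to 0.153. T cell markers had 1 of 5 lower (CD8A) and 3 higher (CD28, ICOS and CD40LG), and 0 of 2 B cell markers were called. Of 3 basophil and eosinophil markers MS4A2 was lower (-1.17 ± 0.11, SE, adjusted p = 2.24e-07 by limma), with r = 0.555 against GP1BA and 0.696 against CLU. Ribosomal protein genes had 1 of 10 lower and 4 higher, by at most log2 0.31. The part of these cells in the differences of the 5 genes was not tested.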

How the data were processed

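The scanner files were read anew. Per the file headers, Agilent Feature Extraction 10.10.1.1 gave each spot's median intensity and local background per channel. The authors also deposited a matrix of normalised log2 ratios, made with limma per the submitters' processing notes, which correlated with the ratios used here at 0.824 to 0.992 per array.

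Background was corrected by normexp (offset 50), ratios were normalised by loess within arrays, 979 faulty spots were left out, and the filter kept probes with 7 or more of 60 channels well above background. The log2 ratios were fitted in limma 3.58.1 (R 4.3.3, with version 1.17.8 of data.table for reading) with group terms and a dye term, on 23 residual degrees of freedom. Arrays form 2 loops, weeks 0 and 9 and weeks 3 and 6. Tests were two-sided, adjusted by Benjamini-Hochberg over 31691 probes within each of 12 comparisons, threshold 0.05. Levels came from Aquantile-normalised channels. Permutations and figures used Python 3.11.15, numpy 2.4.6 and matplotlib 3.10.9. The fit was tested on simulated data.

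Named genes are the 5 genes, the 5 closest to each by likeness, and up to 4 per list with the smallest p in the mean of weeks 3, 6 and 9. ANGPT1 and CD4 fall outside this rule and were chosen after their values were seen. Members and lists were chosen with earlier results of these data known. Replicate numbers do not pair the arrays (median residual correlation of same numbers -0.0149, of other numbers -0.03). Some genes of the lists are not reported here. On the diet slides 2 array positions were not analysed here. No coordinates or sequences are given, since none of the files' build were used.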

Additional observations from a re-analysis of the deposited data

Results flagged for a closer look

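In 60 sets of 4 arrays, 9 values stood apart from the other 3 by more than Dixon's 95% limit, where chance gives about 1 in 20 independent sets. These sets are 10 probes over the same 6 groups of arrays, and probes of 1 gene repeat each other, so they are not independent. Values are log2 ratios with the dye term removed. GP1BA on kibble 9/meat 9 replicate 2 was -2.55, with the other week 9 diet arrays at -0.53 to -0.20. SELP on kibble 0/kibble 9 replicate 1 was 2.18 by 1 probe and 2.07 by the other, with the other arrays at 0.70 to 0.86 and 0.65 to 0.80. This array had the fewest spots above background. The second SELP probe was also apart on meat 6/meat 3 replicate 3, at -2.25 with the others at -0.85 to -0.61, and on meat 9/meat 0 replicate 1, at 0.33 with the others at 1.13 to 1.28.

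Of the CLU probes other than the brightest, 2 were apart on kibble 6/meat 6 replicate 1, at -1.37 with the others at -0.50 to -0.42 and at -0.98 with the others at -0.19 to -0.031. The next CLU value was -0.28 on kibble 3/kibble 6 replicate 2, with the others at 0.0015 to 0.011. The dimmest CLU probe was -0.16 on meat 9/meat 0 replicate 1, with the others at 0.024 to 0.059.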

How the results depend on the processing

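In the mean of weeks 3, 6 and 9 all 5 genes stayed lower on meat and past the threshold in 48 of 48 fits each. With the authors' deposited log2 ratios the numbers of genes called were those of the report. The largest losses came from fitting only the arrays that hold the 2 groups compared, where the few arrays carry the spread: 0 genes were called at weeks 3, 6 and 9, from week 0 to 9 on meat and from week 3 to 6 on meat. The other counts below are genes called of 5. Shares of all probes called under these settings are not given here, so a lost call is not a result about these genes alone. At week 3 (2 in the report) scaling between arrays and slide as a fixed block gave 1 each, and leaving out 1 array 0 to 4. At week 6 (5) leaving out 1 array gave 1 to 5. At week 9 (1) 0 was given by Feature Extraction processed signals, median centring, scaling, no filter, the mean over a gene's probes, slide as a fixed block, array weights, the loop alone, a dye term per scan session and leaving out the first 2 arrays of slide 1, and 0 to 1 by leaving out 1 array. The dye term per scan session and leaving out the first 2 arrays of slide 1 were chosen after seeing the data. For week 9 over week 0, median centring gave 1 on kibble (3), and on meat (2) scaling and the loop alone gave 0, slide as a fixed block and a dye term per session 1, and leaving out 1 array 0 to 4. For week 6 over week 3 on meat (1), processed signals, median centring, scaling, no dye term, slide as a fixed block, the loop alone and a dye term per session gave 0, array weights 3, and leaving out 1 array 0 to 2. The cause of these changes was not tested. With the replicate number as a block, a number that does not pair the arrays, 0 genes were called at week 9 and 0 from week 3 to 6 on meat, and the block changed no other count.

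Signs turned only in values that were not called. For week 9 minus week 0, meat minus kibble, SELP (log2 -0.050) became 0.35 under median centring, 0.063 with no dye term, 0.062 with the slide block, 0.0051 with the replicate block, 0.091 with array weights, 0.18 with a dye term per session and 0.20 without the first 2 arrays of slide 1. GP1BA (-0.14) became 0.25 under median centring and 0.018 without those 2 arrays, CLU (-0.20) 0.067 under median centring, ITGA2B (0.088) -0.038 under scaling and ITGB3 (0.073) -0.041 with the slide block. Leaving out 1 array gave -0.24 to 0.22 for SELP, -0.28 to 0.28 for GP1BA, -0.15 to 0.49 for ITGA2B and -0.11 to 0.35 for ITGB3. For week 6 minus week 3, meat minus kibble, CLU (0.020) became -0.024 with processed signals, -0.056 under scaling and -0.10 to 0.16 without 1 array, and on meat alone CLU (-0.22) became 0.025 under median centring. On kibble, ITGA2B (-0.11) became 0.022 under scaling, 0.061 with the arrays of the 2 groups alone and -0.19 to 0.033 without 1 array, and ITGB3 (-0.086) 0.010 under median centring and -0.16 to 0.050 without 1 array. The fed weeks less week 0 became 0.054 for ITGB3 under median centring. In all alternatives tried for the correlations the number of pairs passing stayed within 1.5 times that of the report. The arrays of the 2 groups alone could not be fitted for the differences between diets in the change over weeks, nor the loop alone for means over both loops. Dim CLU probes limit what can be read below background.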
